A study of Mus musculus with 5 samples.

Results

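In cultured mouse neurons, 13795 of the 96230 ATRX peaks that the control held on chromosomes 1 to 19 (14.3%, 95% exact binomial interval 14.1 to 14.6) were overlapped by a peak of neurons with MICAL1-M1, by no peak of neurons with TBC1D3 and by no peak of younger neurons. They are called shared peaks here. The shared peaks were chosen by measured values, namely the overlap of the 4 deposited peak lists by at least 1 bp, without any minimum of strength. Their number and their presence or absence in a list are therefore a description. A MICAL1-M1 peak overlapped 21694 control peaks in all (22.5%), and the 4 lists together held 651098 peaks. Of the shared peaks, 15.7% had their summit within 1 kb of the start of a protein-coding gene, against 8.45% of all control peaks.

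The neurons of all groups came from C57BL6/J embryos between E15.5 and E17.5 and were infected with lentivirus on day 5 in vitro. Control neurons expressed the fluorescent protein mCherry and were collected after 14 days in vitro (DIV14). Neurons with TBC1D3, a gene of humans and other hominoids that mice lack, and neurons labelled MICAL1-M1, after an enzyme that oxidises actin, were also collected at DIV14, and the young neurons, again with mCherry, at DIV7. Each group was 1 library, so there is no replicate error and no difference between conditions was tested. The sources used here do not give the promoter that drives each construct, the number of embryos per culture or what M1 stands for.

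ATRX is a chromatin remodeller of the SNF2 family. With its partner DAXX it deposits the histone variant H3.3, and it is best known from heterochromatin, telomeres and other repeats, and from GC-rich DNA that can fold into G-quadruplexes. Loss of ATRX in people causes an intellectual disability syndrome. In ChIP-seq a peak marks a stretch of DNA that an antibody against the protein brings down more often than the local background, and its summit is the position of highest pileup.

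The lists rest on different depths. The background pileup recovered from the deposited values was 3.56 fragments in the control and 2.61 in MICAL1-M1, but 1.22 in TBC1D3 and 1.28 at DIV7, and the lowest pileup of a peak was 7, 5, 3 and 3 fragments. Peaks with a q (a p corrected over the genome) of at most 0.05 numbered 4029 of the control's (4.19%), 616 of MICAL1-M1's (0.44%), 296 of TBC1D3's and 385 of those at DIV7 on chromosomes 1 to 19. The libraries that define the shared peaks by absence are thus the shallow ones, and absence of ATRX there cannot be told apart from lack of depth. The rows of the list labelled MICAL1-M1 are named with M2 in the file, against its label, so each MICAL1-M1 value is that of the library labelled MICAL1-M1.

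The promoters below belong to genes whose start lay inside a shared peak that ranked high in both lists. They are shown because all 250 bases before each start were covered by the control peak and by the MICAL1-M1 peak, and because their content of CG dinucleotides (CpG, in capitals) differs. The sequences are those of RefSeq for GRCm38.p6, 5′ to 3′ on the strand of the gene, and each ends at the base before the start. The windows are chr9:100643198-100643447 on the plus strand for Stag1, chr9:101034885-101035134 on the minus strand for Pccb, chr11:23770970-23771219 on the minus strand for Rel and chr6:59426307-59426556 on the minus strand for Gprin3.
Stag1: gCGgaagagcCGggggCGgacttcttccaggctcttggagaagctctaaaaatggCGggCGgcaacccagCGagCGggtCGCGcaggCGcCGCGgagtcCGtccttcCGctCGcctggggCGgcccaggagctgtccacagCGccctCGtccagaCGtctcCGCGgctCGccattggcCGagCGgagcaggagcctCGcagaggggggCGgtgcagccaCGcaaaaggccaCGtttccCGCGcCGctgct
Pccb: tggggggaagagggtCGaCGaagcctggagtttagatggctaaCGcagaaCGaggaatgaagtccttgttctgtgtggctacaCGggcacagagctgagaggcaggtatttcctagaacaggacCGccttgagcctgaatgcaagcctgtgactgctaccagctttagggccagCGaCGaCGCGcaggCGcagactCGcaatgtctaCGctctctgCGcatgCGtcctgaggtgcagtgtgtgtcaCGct
Rel: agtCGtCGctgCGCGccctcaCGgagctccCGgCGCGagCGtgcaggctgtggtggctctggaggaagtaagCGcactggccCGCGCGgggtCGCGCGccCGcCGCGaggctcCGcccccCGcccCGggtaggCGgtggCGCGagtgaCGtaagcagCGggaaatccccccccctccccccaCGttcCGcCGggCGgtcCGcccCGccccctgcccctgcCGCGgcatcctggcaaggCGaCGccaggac
Gprin3: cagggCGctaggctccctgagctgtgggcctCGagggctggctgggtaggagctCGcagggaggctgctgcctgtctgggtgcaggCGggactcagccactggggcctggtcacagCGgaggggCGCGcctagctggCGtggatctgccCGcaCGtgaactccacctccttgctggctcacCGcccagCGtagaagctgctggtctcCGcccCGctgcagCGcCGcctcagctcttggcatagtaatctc
Of these, Rel held 37 CpG and Stag1 31, whereas Pccb and Gprin3 held 16 each. The letters GGGCGG, to which SP and KLF factors bind, occurred 4 times in the Stag1 window and 4 times in that of Rel, counting both strands, 2 times in that of Gprin3 and 0 times in that of Pccb. These windows were picked for their difference in CpG and do not stand for the other starts.

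The shared peak with the best rank in both lists lay at Stag1, which encodes a subunit of cohesin, the ring complex that holds sister chromatids and forms chromatin loops. Its control peak ran over 1660 bp (chr9:100642183-100643842), reached 5.30-fold over the caller's background with a pileup of 25 fragments and had a q of 4.6e-08. The MICAL1-M1 peak reached 4.98-fold with 17 fragments and a q of 4e-05, and its summit lay 3 bp from the control summit, which was 321 bp before the gene start. No TBC1D3 peak lay nearer than 442 bp and no DIV7 peak nearer than 4698 bp. Folds are the authors' own and belong to each list, so a control fold and a MICAL1-M1 fold do not measure a change.

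Several of the 16 best-ranked starts belong to genes of metabolism and vesicle traffic, named here by function and not by rank. At Pccb, a subunit of the mitochondrial propionyl-CoA carboxylase, the control peak reached 3.83-fold and the MICAL1-M1 peak 3.99-fold, and the nearest TBC1D3 and DIV7 peaks were 4939 and 14666 bp away. At Nubp1, an iron-sulfur cluster assembly factor, the values were 3.94-fold and 4.15-fold with gaps of 7879 and 5101 bp. Both genes thus had a clear peak in each of the deeper libraries and none within several kb in the others. Mmaa, which acts in cobalamin metabolism, had a control peak of 3.72-fold and a MICAL1-M1 peak of 3.46-fold with summits 54 bp apart. At Ap3b2, the neuronal subunit of the AP-3 vesicle coat, the control peak reached 4.16-fold and the MICAL1-M1 peak 3.82-fold. St8sia1, the GD3 synthase of ganglioside metabolism, had 3.84-fold and 3.60-fold, with a TBC1D3 peak only 81 bp beyond its edge. A shared peak can therefore lie next to a peak of a library that it was chosen to lack.

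The other starts among the 16 best-ranked are given next, by what their genes do. Rel, an NF-kappaB subunit, had 3.67-fold in the control and 3.60-fold in MICAL1-M1, and its nearest TBC1D3 and DIV7 peaks lay 18875 and 4181 bp off. Mnat1, an assembly factor of the CDK-activating kinase, had 4.08-fold and 3.60-fold, with gaps of 16193 and 1251 bp. At Ssrp1, a subunit of the histone chaperone FACT, the control peak reached 3.94-fold and the MICAL1-M1 peak 3.37-fold. The MICAL1-M1 peaks of these genes rested on 12 or 13 fragments. Nf1, which encodes the Ras inhibitor neurofibromin, had its control summit upstream, at -777 bp from the start (3.53-fold in the control, 3.82-fold in MICAL1-M1), so its promoter itself lay outside both peaks. G2e3, a ubiquitin ligase, had 3.73-fold and 3.60-fold, and Khdrbs2, an RNA-binding protein of neurons, had 3.94-fold and 3.59-fold. Gprin3, a neurite outgrowth regulator, also had 3.94-fold and 3.59-fold, with a TBC1D3 peak 321 bp away. Rnf13 (3.53-fold and 3.60-fold), Ppp1r21 and Umad1 (3.72-fold and 3.60-fold each) were the others. All 16 control peaks had a q of at most 0.05, whereas the MICAL1-M1 peaks of Stag1, Pccb, Ap3b2, Nubp1, Nf1 and Mmaa did and those of the other 10 had a q of 0.116 or 0.117.

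**Figure D1:**
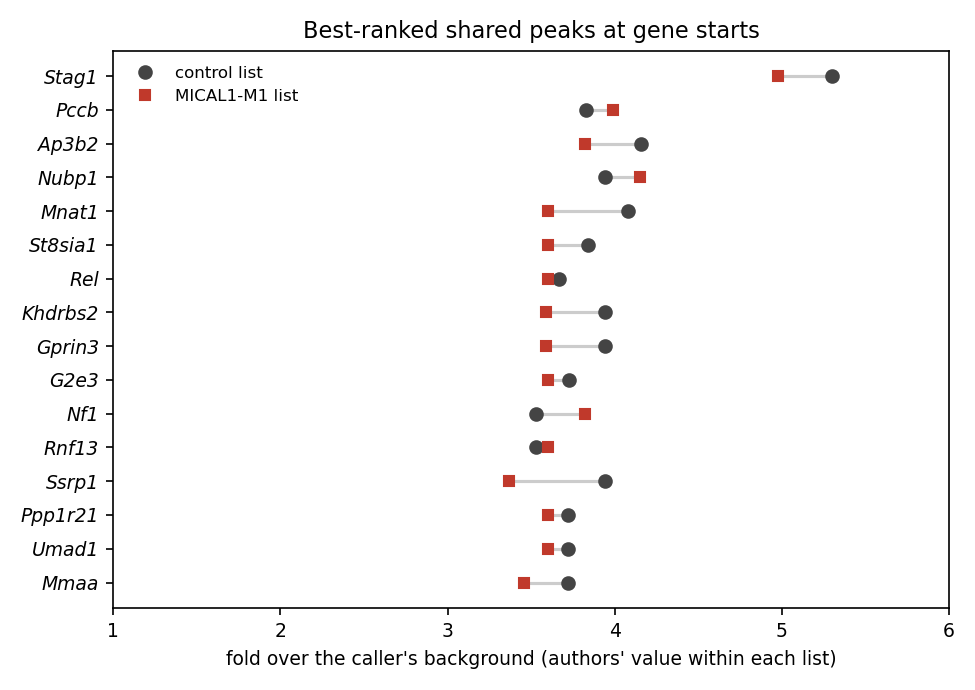
Deposited fold over the caller's background (x axis, linear) of the 16 best-ranked shared peaks at gene starts, 1 row per gene, with a point for the control peak and a point for the MICAL1-M1 peak; TBC1D3 and DIV7 had no overlapping peak. Stag1 lies apart at 5.30-fold and 4.98-fold, and the other genes lie between 3.37-fold and 4.16-fold in both libraries.

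The best-ranked shared peaks that were not near a start in the table lay in gene spans and outside genes, and since the table lacks some starts, a missing start cannot be told apart from none. In Tet1, whose product oxidises 5-methylcytosine in DNA, the control peak reached 4.51-fold and the MICAL1-M1 peak 3.36-fold, each on 20 fragments, and a TBC1D3 peak began 171 bp away. Tmem161b, Wdfy2 and Zfp41 had 4.16-fold each in the control and 4.15-fold, 3.88-fold and 4.15-fold in MICAL1-M1. The Tmem161b summit lay within 1 kb of an end of a gene span, which can be a start that was not known. Outside genes, the nearest gene spans were those of Zfp516 at 394620 bp, Creb3l1 at 28147 bp, Reep3 at 88429 bp and Fdx1 at 22088 bp, with control folds of 3.84 to 3.94 and MICAL1-M1 folds of 3.37 to 3.88. The control folds of these peaks lay in the range of the named starts or, for Tet1, Tmem161b, Wdfy2 and Zfp41, at or above all of them but Stag1. Of their MICAL1-M1 folds, that of Tet1 lay just below this range and that of Fdx1 at its lowest value.

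Over all shared peaks, 2168 of 13795 had the control summit within 1 kb of a protein-coding start (15.7%, 15.1 to 16.3). A further 4.62% lay within 1 kb of either end of a protein-coding gene span but near no known start, called other gene ends here. Another 52.6% lay elsewhere in gene spans and 27.1% outside genes. For all control peaks the shares were 3.1%, 53.9% and 34.5%. The rest of gene spans thus held a like share of both, and the shared peaks had more summits at starts and other gene ends and fewer outside genes. Start positions were known for 16457 of 20665 protein-coding genes on these chromosomes and for none on chromosome 18. Some summits at starts are therefore counted among the other gene ends or elsewhere. Read the other way, shared peaks were 26.7% of the control peaks at gene starts (25.7 to 27.6), 21.4% at other gene ends, 14% elsewhere in gene spans and 11.2% outside genes (10.9 to 11.6).

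The share near starts differed with the list that the control peak met. Control peaks overlapped by TBC1D3 alone had 6.97% of summits near starts (6.34 to 7.64) and those overlapped by DIV7 alone 8.24% (7.57 to 8.95). The TBC1D3 and DIV7 lists are longer than that of MICAL1-M1 and come from shallower libraries. The part of length or depth in this difference was not tested. Control peaks that met no other list had 4.12% (3.97 to 4.28). Shared peaks lay above these classes. They lay below those that met MICAL1-M1 and 1 further list, at 26.8% with TBC1D3 and 27.1% with DIV7, and below those in all 4 libraries, at 41.2% (38.8 to 43.6). Control peaks with both TBC1D3 and DIV7 but not MICAL1-M1 had 14.4% (12.3 to 16.7), an interval that overlaps that of the shared peaks. The intervals cover counting error only, and peaks are not replicates of a condition.

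**Figure D2:**
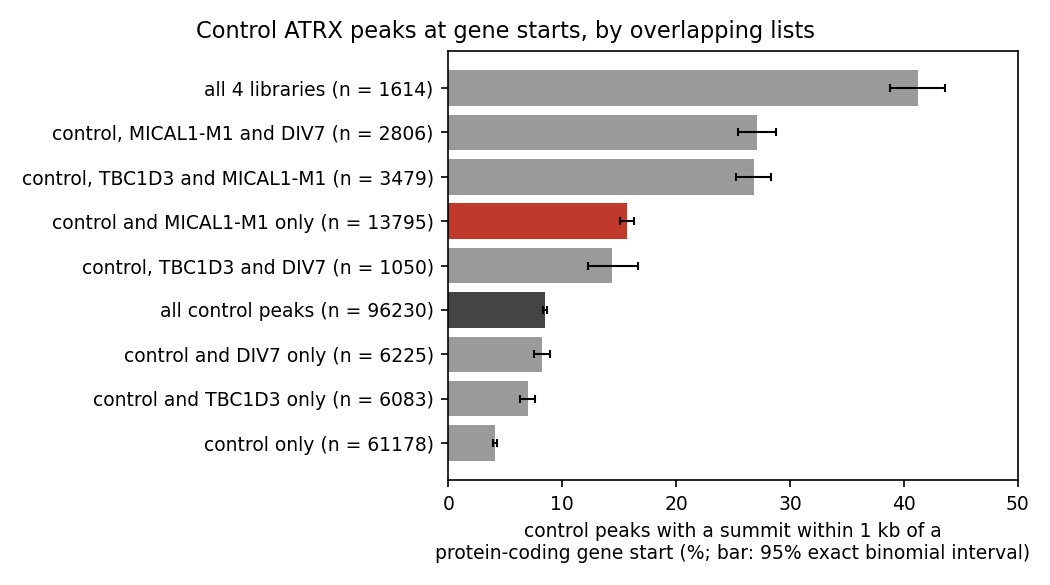
Share of control peaks with a summit within 1 kb of a protein-coding gene start (percent, x axis from 0) for each class of overlap with the other lists; bars give the share and whiskers the 95% exact binomial interval. The shared peaks of control and MICAL1-M1 stand at 15.7%, above the classes with TBC1D3 alone (6.97%) and DIV7 alone (8.24%) and below the peaks of all 4 libraries (41.2%).

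Around the start the bin with the most summits was the first inside the gene. Of the 2168 control summits, 592 fell in the first 200 bp after the start (42.9 per 1000 shared peaks), 265 in the 200 bp before it (19.2 per 1000) and 308 between 400 and 200 bp before it. The median position was 85 bp after the start, 49.4% lay within 250 bp of it and 40.4% lay upstream (38.3 to 42.5). The MICAL1-M1 summits of the same peaks were placed much alike: 2212 lay within 1 kb of a start, with a median of 130 bp after it and 37.3% upstream (35.3 to 39.4). In 2048 shared peaks both summits lay within 1 kb of a start. Since the MICAL1-M1 peaks were chosen by overlap with these control peaks, a like placement follows largely from the rule. Control peaks without any partner had their near-start summits at a median of 92 bp, with 40.9% upstream and 43.3% within 250 bp of the start.

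**Figure D3:**
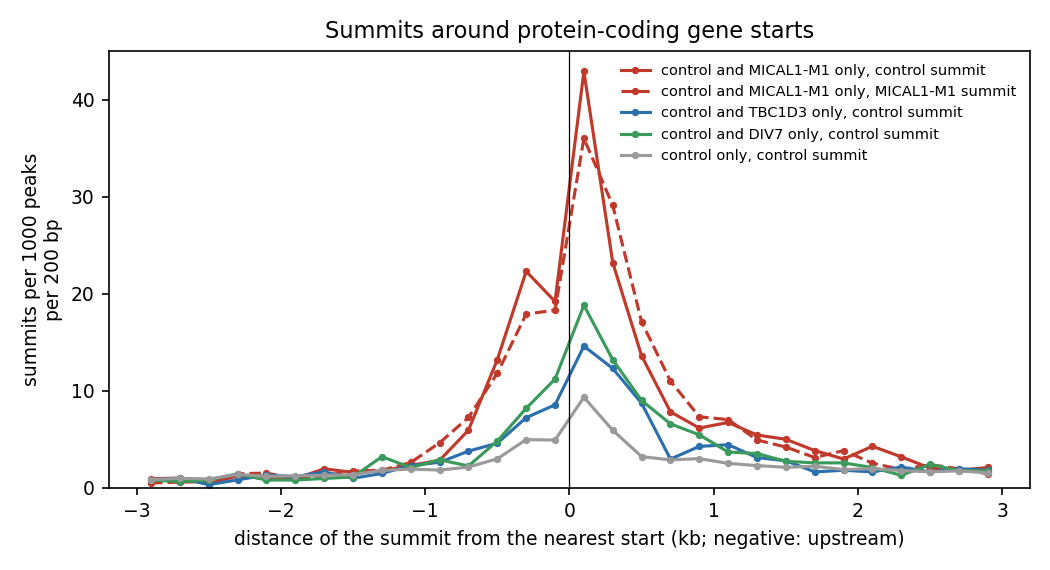
Summits per 1000 peaks (y axis) in bins of 200 bp by distance from the nearest protein-coding gene start (x axis, kb, upstream negative); the red lines show the control summits (solid) and MICAL1-M1 summits (dashed) of the shared peaks, and the other lines the control summits of peaks with TBC1D3 only, DIV7 only or no partner. The shared peaks have their highest bin in the first 200 bp after the start (42.9 per 1000 for the control summits and 36 per 1000 for those of MICAL1-M1).

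Shared peaks were wider than the average control peak. A wide peak meets any of the other lists more easily, and the cause of the difference was not tested. Their median width was 533 bp (quartiles 378 and 803, range 287 to 4249), against 432 bp for all control peaks, and 15.2% were over 1 kb. Their control fold had a median of 2.28 (1.97 to 2.63 between quartiles, 1.44 to 5.59 in all) on a median of 10 fragments. Most of them were weak peaks: 1101 had a q of at most 0.05 in the control (7.98%, 7.53 to 8.45, against 4.19% of all control peaks), 178 had one in MICAL1-M1 (1.29%), and 43 had one in both. Width and strength belong to the values that chose the peaks and are given as a description.

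Since wide and strong peaks also lay at starts more often, the classes were set side by side at like width and like p. Among control peaks of up to 400 bp, 8.76% of the shared peaks had a summit near a start, against 4.94% with DIV7 alone, 3.91% with TBC1D3 alone and 2.5% with no partner. Over 1000 bp the shares were 29.3%, 22.0%, 20.8% and 14.3%. All control peaks, which include those of several lists, had 3.7% at up to 400 bp and 29.2% over 1000 bp, so the widest shared peaks lay at starts as often as all control peaks of that width. The shared peaks were highest of these 4 classes at every width and also at every level of the control p, from 7.76% at a p over 0.01 (next highest class 4.07%) to 30.0% at a p under 0.0001 (next highest class 22.3%). With a p of at most 0.001 required in all 4 lists, 3518 control peaks met MICAL1-M1 alone, with 37.1% near starts (35.5 to 38.7). With DIV7 alone it was 32.1% of 535 (28.2 to 36.3), an interval that overlaps, and with TBC1D3 alone 27.8% of 450 (23.7 to 32.2). These classes also hold peaks that meet a weaker peak of an excluded list, so they are not the classes of the full lists. With TBC1D3 and DIV7 kept in full, 1918 shared peaks were left, with 32.7% near starts (30.6 to 34.9). Among the 4029 control peaks with a q of at most 0.05, 415 of 1101 shared peaks had a summit near a start (37.7%, 34.8 to 40.6), which is also the share of all these control peaks (37.7%). The classes with TBC1D3 alone, DIV7 alone and no partner had 31.5% (24.6 to 39.2), 29.2% (23.2 to 35.9) and 26.3% (23.6 to 29.2). With a q of at most 0.05 required of both the control and the MICAL1-M1 peak, 16 of 43 shared peaks lay near a start (37.2%, 23.0 to 53.3), no more than the 37.7% of the 4029 control peaks at that threshold. The classes with TBC1D3 alone and DIV7 alone, at 39.9% and 38.8%, then also hold control peaks that meet a weaker MICAL1-M1 peak, so they are not the classes of the full lists.

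**Figure D4:**
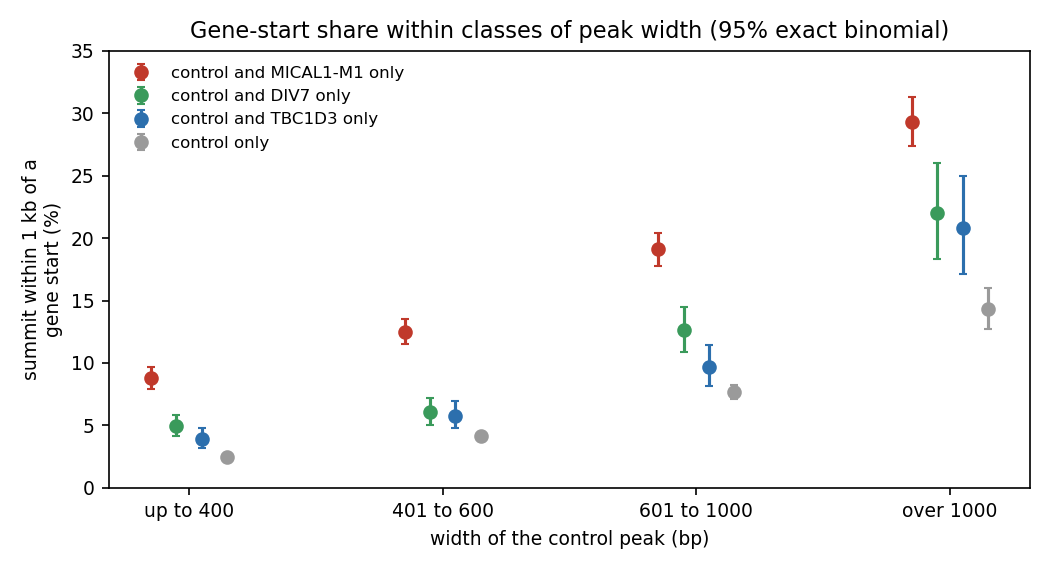
Share of summits within 1 kb of a protein-coding gene start (percent, y axis from 0) by width of the control peak (x axis, bp classes) for 4 overlap classes, with 95% exact binomial intervals. In each width class the shared peaks lie highest, from 8.76% at up to 400 bp to 29.3% over 1000 bp.

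The control and MICAL1-M1 peaks often met by their flanks rather than by their summits. The summits of a pair lay a median of 261 bp apart (quartiles 117 and 466), both summits fell inside the overlap in 5160 pairs (37.4%), and 21.4% of pairs had summits within 100 bp. At gene starts both summits lay in the overlap in 47.9% of pairs and elsewhere in 35.4%. Pairs of control with TBC1D3 alone had 34.0% and pairs with DIV7 alone 35.2%, and at starts 31.4% and 37.4%. Summits in these pairs lay closer, a median of 214 and 213 bp apart, with 24.9% and 25.6% within 100 bp. In the pairs with MICAL1-M1 the summits lay about as far apart at starts as elsewhere (medians of 252 and 262 bp). Their overlap was wider at starts (medians of 373 and 293 bp), and its part in the higher share there was not tested. The MICAL1-M1 partner was a median of 531 bp wide, with 2.22-fold (1.94 to 2.62 between quartiles, at most 5.11) on 8 fragments. Across the 13795 pairs the Spearman correlation of the −log10 p in both lists was 0.16, and it was 0.01 and 0.04 in the pairs with TBC1D3 and DIV7; pairs share the genome and the depth of each library, so these are descriptions. A shared peak met more than 1 MICAL1-M1 peak in 439 cases (3.18%).

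On the MICAL1-M1 side, the partners were chosen by overlap with the shared peaks, so their share near starts is no separate support. The 13553 distinct MICAL1-M1 peaks that were the best partner of a shared peak had 15.9% of their own summits near starts (15.3 to 16.5), whereas all MICAL1-M1 peaks had 5.21% and the 96901 that met no peak of the others 1.82%. A peak of TBC1D3 or DIV7 was often not far: the median gap from a shared peak was 2914 bp to TBC1D3 and 2889 bp to DIV7, and 24.2% and 23.6% had one within 1 kb. Control peaks without any partner had median gaps of 3490 and 3387 bp, with 19% and 19.3% within 1 kb.

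In all, 2262 of 16457 protein-coding genes had a shared summit within 1 kb of a start (13.7%), and 7556 had any control summit there (45.9%), which makes 29.9% of the genes occupied in the control (28.9 to 31.0). Of the 2262 genes, 1554 (68.7%) had no TBC1D3 or DIV7 summit within 1 kb of the start either, while 708 had one from another peak. Among the lists described next this number was 4 of 10 for immediate early genes, 4 of 11 for presynaptic release, 6 of 9 for postsynaptic glutamate, 5 of 7 for inhibitory synapses, 1 of 5 for voltage-gated channels and 3 of 7 for axon guidance. At most starts of the immediate early, presynaptic, channel and axon genes a TBC1D3 or DIV7 summit thus lay at the same start as the shared peak. It was 9 of 11 for chromatin genes and 0 of 2 for developmental factors. The gene lists below were read against both shares, since lists that the control occupies often also hold more shared peaks. No list was tested.

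Activity-induced and synaptic genes had shared peaks at shares near those of other occupied genes. Immediate early genes, which neurons switch on within minutes of activity, had them at 10 of 34 starts (37.0% of 27 occupied), among them Klf6 (control 3.27-fold, MICAL1-M1 3.18-fold), Srf (4.08-fold, 2.89-fold) and Jun (2.70-fold, 3.0-fold). Klf6 and Jun encode transcription factors of the response itself, and Srf the factor that drives it. The control and MICAL1-M1 summits lay 1347 bp apart at Srf, against 92 bp at Klf6 and 222 bp at Jun. At Srf a TBC1D3 peak lay 93 bp and a DIV7 peak 372 bp from the shared peak. Presynaptic release genes had 11 of 48 (28.9% of 38 occupied), with the calcium sensor gene Syt1 at 3.51-fold and 3.05-fold and the vesicle protein gene Sv2b at 3.07-fold and 2.78-fold. Postsynaptic glutamate genes had 9 of 42 (30.0% of 30 occupied), with the AMPA receptor subunit gene Gria2 at 3.60-fold and 2.5-fold and the adhesion gene Lrrtm4 at 3.51-fold and 3.13-fold. Genes of inhibitory synapses had 7 of 23 (38.9% of 18 occupied), with the GABA-A receptor subunit gene Gabrb2 at 3.54-fold and 2.77-fold. Gphn, the gephyrin scaffold gene, had 2.45-fold and 2.46-fold.

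For channel and axon genes the intervals also contained the 29.9% of all genes. Voltage-gated channel genes had 5 of 30 (20.8% of 24 occupied, 7.13 to 42.2), with the sodium channel gene Scn2a at 4.6-fold and 3.32-fold and the calcium channel subunit gene Cacna2d1 at 2.85-fold and 3.32-fold. Axon guidance and growth cone genes had 7 of 37 (22.6% of 31 occupied, 9.59 to 41.1), with Crmp1, a mediator of semaphorin signals, at 3.11-fold and 2.92-fold and the tubulin gene Tubb3 at 2.63-fold and 2.78-fold. MICAL, RAB and actin regulators had 7 of 30 (30.4% of 23 occupied): the actin-severing gene Cfl1 had 3.77-fold and 3.31-fold, and Mical3, a relative of MICAL1, had 2.16-fold and 2.77-fold. Each MICAL1-M1 peak named here for a channel, axon, actin, synaptic or activity-induced gene had a q above 0.05. The control q was also above 0.05 for Jun, Sv2b, Gphn, Cacna2d1, Crmp1, Tubb3 and Mical3. For the other genes named it was at most 0.05.

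Chromatin genes had shared peaks at 11 of 45 starts (34.4% of 32 occupied). Beside Stag1 these included Kmt2a, an H3K4 methyltransferase gene (3.48-fold in the control, 3.37-fold in MICAL1-M1), and Ehmt1, an H3K9 methyltransferase gene (3.01-fold, 3.55-fold). Ezh2, which encodes the catalytic subunit of Polycomb complex PRC2, had 3.07-fold and 3.30-fold. The MICAL1-M1 peaks of Kmt2a, Ehmt1 and Ezh2 had a q above 0.05, as did the control peaks of Ehmt1 and Ezh2. The other core PRC2 genes Suz12 (2.13-fold and 2.14-fold) and Eed were on the list as well and were picked out after their values were seen. Eed had a pair of shared peaks, at 2.00-fold and 2.07-fold in the control and 2.18-fold and 2.22-fold in MICAL1-M1. These Suz12 and Eed peaks lay below the median control fold of all shared peaks, 2.28, and that of Ezh2 above it.

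Genes of basic cell functions had shared peaks in like proportions. Mitochondrial ribosomal protein genes had them at 18 of 68 starts (41.9% of 43 occupied, 27.0 to 57.9), with Mrpl51 at 3.01-fold in the control and 3.32-fold in MICAL1-M1 and Mrpl48 at 2.75-fold and 3.41-fold, whereas cytosolic ribosomal protein genes had 8 of 61 (19.5% of 41 occupied, 8.82 to 34.9), with Rps27l at 3.51-fold and 2.98-fold. Both intervals contain the 29.9% of all genes. Oxidative phosphorylation genes had 17 of 76 (30.4% of 56 occupied), with the cytochrome c gene Cycs at 3.51-fold and 3.54-fold and the complex I gene Ndufb2 at 3.39-fold and 3.60-fold. Proteasome subunit genes had 9 of 31 (39.1% of 23 occupied), translation initiation factors 9 of 41 (33.3% of 27 occupied), tRNA synthetases 7 of 26 (43.8% of 16 occupied) and ubiquitin conjugating enzymes 7 of 27 (35% of 20 occupied). RNA polymerase and Mediator genes had 10 of 45 (35.7% of 28 occupied), with Med19 at 3.29-fold and 3.88-fold on a q of 0.047 and 0.0335, and Polr2a, the largest subunit of RNA polymerase II, at 3.12-fold and 3.67-fold. At Med19 a TBC1D3 peak ended 5 bp from the shared peak. Splicing factor genes had 13 of 65 (31.0% of 42 occupied), with Hnrnpk at 3.30-fold and 3.55-fold. Of the genes of basic functions named here, only Med19 had a q of at most 0.05 in MICAL1-M1. In the control the q was above 0.05 for Mrpl51 and Mrpl48 and at most 0.05 for the others.

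Among large families, Zfp zinc finger genes had shared peaks at 82 of 325 starts (25.2%), which is 39.4% of 208 occupied genes (32.7 to 46.4). Of these, 62 of 82 had no TBC1D3 or DIV7 summit within 1 kb. Zfp433 had 5.04-fold in the control and 2.95-fold in MICAL1-M1, and Zfp866 had 3.94-fold and 3.32-fold. Many KRAB zinc finger proteins of this family repress repeats through TRIM28. Clustered histone genes had 14 of 62 (35.9% of 39 occupied). Since they lie close together, H2ac20 and H2ac21 shared 1 peak (3.94-fold and 3.12-fold). The peaks named for these Zfp and histone genes had a q of at most 0.05 in the control and above 0.05 in MICAL1-M1. At the other end by share of the genes of the list, olfactory and vomeronasal receptor genes had 0 of 1258 (0% of 7 occupied, 0 to 41). Developmental factor genes had 2 of 64, Sox1 and Pax6 (20% of 10 occupied, 2.52 to 55.6). Out of occupied genes, both intervals contain the 29.9% of all genes, and few of these genes were occupied in the control. Clustered protocadherin genes have no starts in the table and were not analysed here. Of the cell type markers, shared peaks lay at 5 of 11 neuron genes (Gad1, Slc17a7, Syt1, Tbr1 and Tubb3), against 13.7% of all genes. That is 62.5% of 8 occupied (24.5 to 91.5), an interval that contains the 29.9% of all genes. Of the 5 neuron genes, 2 had no TBC1D3 or DIV7 summit within 1 kb of a start. At Gad1 the control peak (1.80-fold) overlapped that of MICAL1-M1 by 11 bp. Shared peaks lay at 1 of 6 astrocyte genes (Gja1, 1 occupied) and 1 of 4 oligodendrocyte genes (Cspg4, 2 occupied). Microglia genes had 0 of 5 and fibroblast and endothelial genes 0 of 4. Of the best-ranked shared peak at each marker, only that of Syt1 had a q of at most 0.05 in the control. None did in MICAL1-M1. A peak at a gene is no measure of its expression, so these counts do not check the identity of the cells.

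**Figure D5:**
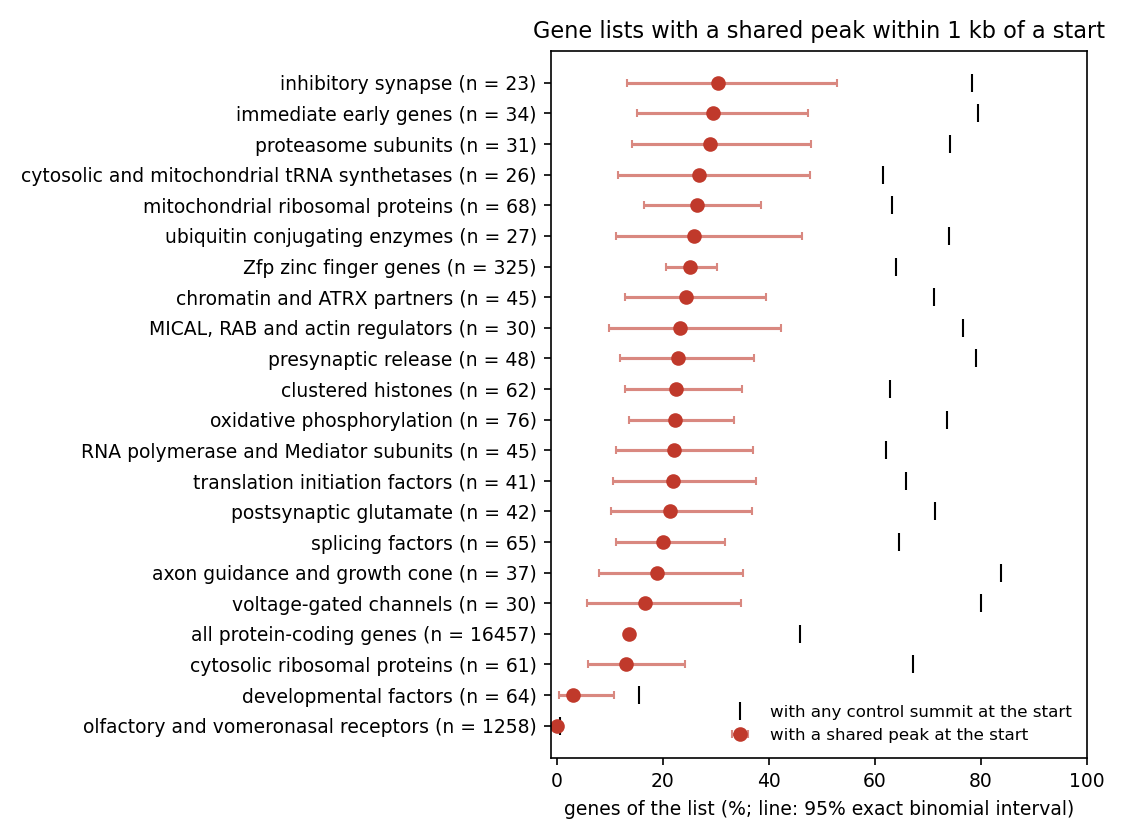
Share of the genes of each list (percent, x axis) with a shared peak within 1 kb of a start, as red points with lines for the 95% exact binomial interval, and with any control summit there, as black ticks; n is the number of genes with a known start. All protein-coding genes stand at 13.7% and 45.9%, most lists lie higher in both, and olfactory and vomeronasal receptor genes lie at 0 shared peaks.

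In sequence, the starts with a shared summit resembled other occupied starts more than they differed from them. Over the 300 bases from 250 before to 50 after a start, the 2613 starts with a shared summit had a median GC content of 62.0% and 22 CpG, against 57.0% and 14 CpG for all 20085 starts, 60.7% and 20 CpG for starts with a control summit of no partner, and 66.3% and 26 CpG for starts with a peak of all 4 libraries. A shared summit lay at 1.36% of starts with 0 to 4 CpG, 8.03% with 5 to 9, 17.5% with 10 to 19 and 21.1% with 20 or more. Of the starts occupied in the control, however, the shares were 19.3%, 29.8%, 29.6% and 29.4%, so from 5 CpG upward the fraction of occupied starts with a shared peak hardly varied. What rose with CpG was occupancy by the control, from 7.02% to 71.8%.

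Searched on both strands, GGGCGG of SP and KLF factors was found at 69.7% of starts with a shared summit and at 47.0% of all starts, CCGGAAG of ETS factors at 18.4% and 11.9%, and the cAMP response element TGACGTCA at 3.79% and 2.3%. Starts with a control summit of no partner had 62.5%, 18.1% and 3.62% for these motifs, so the values for ETS and the cAMP response element were nearly those of other occupied starts. TATAAA was found at 5.7% and 12.7%, TGANTCA of AP-1 at 3.98% and 7.06%, CCAAT at 39.8% and 38.1%, CACGTG (E-box) at 9.91% and 7.89%, AAGATGGC of YY1 at 4.55% and 3.06%, and GCGTGGGCG of EGR factors at 1.42% and 0.831%. NRF1 sites were at 1.99% and 1.34%, and a G-quadruplex pattern at 29.5% and 22.5%. Among starts with 10 or more CpG each of these gaps but that of CCAAT (39.6% and 36.5%) was smaller: GGGCGG was at 76.0% of starts with a shared summit and 72.6% of all, the G-quadruplex pattern at 31.8% and 32.4%, and CCGGAAG at 20.3% and 18.7%. The starts with a peak of all 4 libraries differed there, with CCGGAAG at 10.4% and the G-quadruplex pattern at 40.4%. A match is a description of letters and not a site of binding, and the motifs GGGCGG and GCGTGGGCG can overlap.

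Shared peaks were spread over the genome. They made up 13.3% of control peaks on chromosome 5 and 15.7% on chromosome 9, the lowest and highest of the 19 chromosomes, and their median spacing was 72.2 kb. Long neuronal genes held the most: the span of Celf2, which encodes an RNA-binding splicing regulator, had 40 shared peaks among 186 control peaks (21.5%) over 857 kb. Csmd1 had 35 of 215 (16.3%), Cadm2, a synaptic adhesion gene, 27 of 127 (21.3%), and the adhesion genes Lsamp and Ntm, which belong to 1 family, 27 of 181 (14.9%) and 26 of 130 (20%). These genes were named for holding the most shared peaks, which favours a high fraction, and Dlg2, the next by number, had 25 of 190 (13.2%), against 14% of control peaks in gene spans away from the ends. At least 1 shared summit lay in the span of 4285 of 20665 protein-coding genes, 327 spans held 5 or more and 93 held 10 or more.

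At the edge of the rule, membership turned on few bases. The least overlap was 1 bp: a control peak at chr1:79357629-79358015 (1.75-fold) touched a MICAL1-M1 peak of 1.94-fold by 1 base, as did one at chr1:151986117-151986555 (1.86-fold, MICAL1-M1 3.88-fold) and one at chr11:106272565-106273232 (2.19-fold, MICAL1-M1 2.77-fold). Just outside, the control peaks at chr10:108738018-108738522 (2.85-fold), chr10:108849268-108849790 (2.41-fold) and chr11:113749476-113749944 (3.02-fold) had a MICAL1-M1 peak at the adjoining base, a gap of 0 bp, and were left out. In all, 829 shared peaks overlapped MICAL1-M1 by 50 bp or less and 889 control peaks without any partner had a MICAL1-M1 peak within 50 bp. On the other side, 411 shared peaks had a TBC1D3 or DIV7 peak within 50 bp, and 388 control peaks that met MICAL1-M1 were kept out by an overlap of 50 bp or less with TBC1D3 or DIV7.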

How the data were processed

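ATRX ChIP-seq peak lists of 4 libraries (mCherry, TBC1D3 and MICAL1-M1 at DIV14, mCherry at DIV7), 1 per group, were analysed. The input sample was not analysed here. Chromatin was cut with an enzymatic kit, brought down with an ATRX antibody and sequenced from both ends, with input DNA as the background, per the labels' protocols. The submitters' processing notes name MACS 1.4.2, Bowtie 1.3.0, ChIPseeker 1.26.2 and SAMtools 1.9. What each was used for, with which settings, and on which build is not given in the sources used here. The layout with q-values is not the one that MACS of this version writes, so the caller is uncertain, and the meaning of fold, p and q rests on the layout and on the fit below.

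The lists have 10 columns and no header, in the narrowPeak layout, 1 list per library, not pooled. The deposited score equals the −log10 p times 10 without its decimals in 100% of rows. The deposited fold is a ratio of pileup to local background, and the deposited −log10 columns hold an uncorrected p-value and a q-value. The deposited summit offset gave the summit. Each list reaches a p of 0.05. Read totals are unknown. Pileups were recovered from fold and p by a Poisson tail (99.97% to 99.99% of rows within 0.001 in log10 p).

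Control peaks on chromosomes 1 to 19 were classed by overlap of at least 1 bp with the full lists. A summit within 1 kb of a RefSeq protein-coding start (GRCm38.p6) counted as near it. Starts covered 18 of the 19 chromosomes, and on 18 of 18 in each library summits were more frequent at them than far from them, from which the build was taken. For a peak that met several MICAL1-M1 peaks, the one with the best p was used. Named genes are those whose worse rank by p over both lists was best: 16 at starts, 4 in gene spans, 4 outside genes and up to 4 of each of 27 gene lists, besides the 5 genes with the most shared peaks. The shared peaks and the gene lists were chosen with earlier results of these data known. Histone genes were matched by synonym. Motifs were searched on both strands of the 300 bases from 250 before to 50 after a start. The letters printed are the 250 before.

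Intervals are exact binomial at 95% and cover counting error only. With 1 library per group no p-value was computed. The scripts were checked on simulated peaks. Python 3.11.15, numpy 2.4.6, pandas 2.3.3, scipy 1.17.1 and matplotlib 3.10.9 were used. Alternatives covered overlap, thresholds, list length, window and gene set.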

Additional observations from a re-analysis of the deposited data

How the results depend on the processing

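No paired analysis was possible because each group had 1 library, and for the same reason no replicate could be left out. Of the shared peaks, 15.7% lay near a start as reported. The share was 18.7% (with 9.92% at a q of at most 0.05) with an overlap of 50% of the shorter peak and 18.8% (8005 peaks) with the MICAL1-M1 summit inside the control peak. Without a TBC1D3 or DIV7 peak within 1 kb, 8132 peaks and 1390 genes were left at 16.2%. A p of at most 0.001 gave 37.1% (3518 peaks, 1365 genes) when required in all lists. In control and MICAL1-M1 only it gave 32.7% (1918 peaks, 678 genes), and 19.3% of all such control peaks lay near a start. Such a p in all lists lets in peaks that meet a weaker TBC1D3 or DIV7 peak, as lists of equal length do. An overlap of 50% lets in those that meet one by less. A q of at most 0.05 gave 37.2% (43 peaks, 18 genes) against 37.7%, so the higher share was not seen there, and shared peaks at that q in the control had a median width of 942 bp. Lists of equal length gave 18.9%. Windows of 500 bp and 3 kb gave 12.2% and 20.8% against 6.24% and 12.3% of all control peaks, any base of the peak gave 17.1%, and all annotated genes 17.9%. Chosen after the data were seen, control peaks of up to 600 bp gave 10.6% (8003 peaks, 901 genes) against 4.84%, either end of all protein-coding genes gave 17.5% against 9.89%, and the classes of width, p and q in the report were added then too. In each of these settings but the q threshold the shared peaks lay above all control peaks; the cause of each shift was not tested. Depth limits all of this: most shared peaks rest on about 10 fragments, and a peak missed in TBC1D3 or at DIV7 makes a peak a shared one.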
